A study of Mus musculus with 7 samples.

Results

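Carriers that take up GABA, glycine, taurine and creatine were followed in cultures of embryonic mouse spinal cord cells given a virus that raises or targets the microRNA miR-218. The set held 5 genes of the Slc6a family, Slc6a11, Slc6a13, Slc6a9, Slc6a6 and Slc6a8, found by gene symbol among 23366 genes of the deposited count table. The family member Slc6a5 was left out by the rule. The genes were chosen by family and substrate with their raw counts across the 3 groups already known, so the values that chose them are those described. Levels, fold changes and calls of the members are a description, and no p-value of a single member is given. Slc6a8, a creatine carrier, stood in the set although its substrate is neither GABA, glycine nor taurine. Of the 5 genes, 4 had enough reads to enter the fit of 12134 genes, and Slc6a13 did not.

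The 7 libraries came from spinal cord cells of C57BL/6 embryos at embryonic day 13.5, enriched over a density gradient and labelled as primary motor neurons. Compared were 3 libraries of cells with a lentivirus for miR-218 overexpression (OE), 2 of cells with a lentivirus for miR-218 knockdown (KD), and 2 of cells with an empty control lentivirus. All groups shared the pUltra vector named in the titles, a medium with CNTF and GDNF as trophic factors, and fluorodeoxyuridine against dividing glia once 5 days in culture had passed. The promoter that drives the miR-218 constructs is not given in the sources used here. The labels do not say whether the libraries of a group came from separate cultures, so p-values cover only the variation among these libraries, and part or all of it may be technical.

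Most Slc6a carriers sit in the plasma membrane and move their substrate into the cell together with sodium and chloride ions. In the central nervous system the GABA and glycine carriers clear transmitter from the space around synapses, with a large part of that uptake in astrocytes. Taurine serves as an osmolyte, and creatine feeds the phosphocreatine store that buffers ATP. A microRNA lowers a transcript mostly by pairing its seed, bases 2 to 8, with matching sites in the 3′ untranslated region (UTR).

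The mature miR-218-5p and the 1 match found among the 5 carriers are shown first, because they tell which of these transcripts carries a seed match at all. The microRNA is written as in RefSeq (GRCm38.p6, chr5:48223966-48223986 and chr11:35616840-35616860, plus strand) with its seed in capitals, and the site with the match in capitals and 10 bases on each side:
miR-218-5p: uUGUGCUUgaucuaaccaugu
Slc6a6 site: gactgtatttAGCACAAgagaaaagct
In the annotated 3′ UTR of 1 transcript per gene on build mm9, none of the 5 carriers held the 7-base match AAGCACA (sense strand only). Slc6a6 held 1 match AGCACAA, which pairs with bases 2 to 7 and ends in an adenine, at chr6:91708594-91708600 on the plus strand, in a 3′ UTR of 4006 bases. Slc6a11 (2146 bases), Slc6a8 (1402), Slc6a9 (1063) and Slc6a13 (317) held no 6-base match AGCACA. Over 18182 genes with such a UTR, 11.3% held AAGCACA and 28.5% held the shorter AGCACA inside it, and among UTRs within 20% of the length of that of Slc6a6 the share with AAGCACA was 37.8%. The share of UTRs of that length with AGCACAA, the match that Slc6a6 holds, was not counted. A match is a description of the letters and was not tested as a binding site.

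The libraries held 1591812 to 3360686 counts, and the controls were the shallowest. Mir218-1, a precursor of miR-218, had 234 to 342 CPM (counts scaled to library size with TMM) in OE, 42.8 to 52.5 CPM in KD and 51.9 to 52.3 CPM in control, so the OE label is checked by these reads while mature miR-218 in KD is not. Motor neuron markers were scarce: 9 markers summed to 31 to 45.1 CPM in OE, 34 to 42.8 CPM in KD and 23.9 to 29.5 CPM in control, Mnx1 had no read, and 4 of the 9 passed the filter. Inhibitory interneuron markers summed to 502 to 584 CPM in OE, 611 to 675 CPM in KD and 516 to 565 CPM in control. These markers did not move together: Gad1 averaged 276 CPM in KD and 202 CPM in control, Slc32a1 101 and 102 CPM, and Pax2 8.53 and 15.2 CPM. Astrocyte and radial glia markers summed to 4349.8 to 4548 CPM in OE, 3824 to 4529 CPM in KD and 2768 to 3120.3 CPM in control. Fabp7 and Vim carried most of that sum, at 1944 and 1728 CPM on average in OE, 1661 and 1610 CPM in KD and 1152 and 932 CPM in control. The astrocyte glutamate carrier Slc1a2 stood the other way, at 184 CPM in OE, 235 CPM in KD and 476 CPM in control. Smooth muscle, pericyte and endothelial markers summed to 323 to 456 CPM in OE, 761 to 812 CPM in KD and 176 to 183 CPM in control, with Cldn5 at 0. Acta2, Tagln and Cnn1 carried most of that sum, at 454, 197 and 115 CPM on average in KD. In OE they averaged 231, 113 and 42.7 CPM, and in control 96.9, 58.2 and 14.3 CPM. Myh11, Pdgfrb, Rgs5, Pecam1 and Cdh5 had 6 counts or fewer in every library. Proliferation genes summed to 623 to 762 CPM in OE, 976 to 1092 CPM in KD and 344 to 401 CPM in control. In RNA from whole cultures, fewer cells of a type and less RNA per cell cannot be told apart.

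Most reads of the set came from the taurine carrier Slc6a6 and the GABA carrier Slc6a11, and 1 call fell on each. Slc6a6 was called lower in KD than in control, a call lost without control 2 or without KD 1. Slc6a11 was called lower in OE than in KD, a call lost without KD 2 or without OE 3. Whether the comparisons differ from each other was not tested. To be called, a gene needed a fold change over 1.5 and, in edgeR's quasi-likelihood test, a p under 0.05 after Benjamini-Hochberg adjustment over all genes tested. By that rule 0 of 4 tested members was called in OE against control (4.91% of all genes), 1 of 4 in KD against control (11.7%) and 1 of 4 in OE against KD (5.3%). In OE against control 1 member had an unadjusted p under 0.05, and DESeq2 and limma-voom also called 0. The members' median log2 fold change was -0.33 in OE against control, -0.39 in KD against control and 0.05 in OE against KD, beside 0.00, 0.00 and -0.01 over all genes tested. The libraries of the groups did not overlap for 1 of 4 members in OE against control (35.3% of all genes), 3 of 4 in KD against control (53.3%) and 3 of 4 in OE against KD (37.9%). Because these contrasts were in view when the genes were chosen, nothing is read from the counts.

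**Figure D1:**
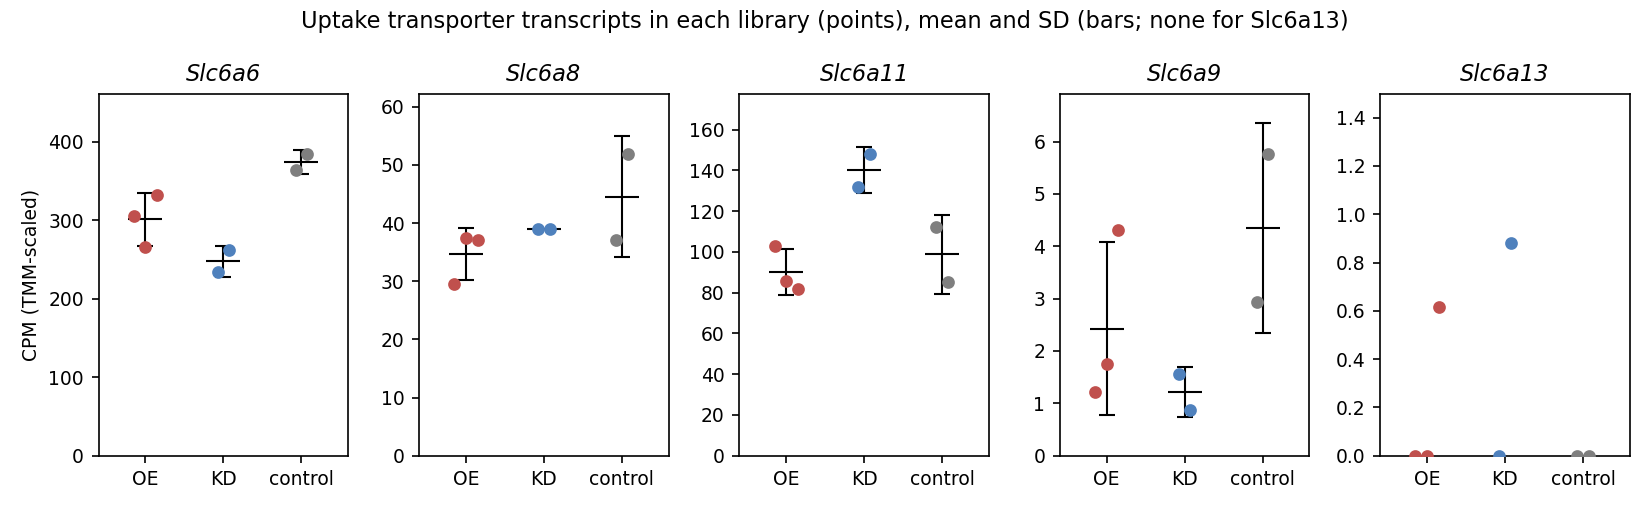
CPM (TMM-scaled) of the 5 carriers in each library (points), with the mean and SD of a group (bars; none for Slc6a13), on axes that differ between genes. Slc6a6 lay at 234 and 261 CPM in KD against 364 and 384 CPM in control, and Slc6a11 at 132 and 148 CPM in KD, above all other libraries.

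Slc6a11 encodes the GABA carrier of astrocytes, which takes up GABA away from the synaptic cleft. It lies on chromosome 6 at 114081235 to 114199880 (mm9, plus strand). Its level was 103, 85.6 and 81.8 CPM in OE 1, 2 and 3, 132 and 148 CPM in KD 1 and 2, and 112 and 85.2 CPM in control 1 and 2, from 133 to 505 counts per library. Both KD libraries lay above every other library, and the OE values overlapped those of control.
In OE against KD, Slc6a11 averaged 90.2 ± 11.4 CPM in OE and 140 ± 11.4 CPM in KD (SD, n = 3 and 2), a log2 fold change of -0.64 (SE 0.14), past both thresholds. Its value was -0.54 without KD 2 and -0.57 without OE 3, neither called. In KD against control, with 98.8 ± 19.2 CPM in control (SD, n = 2), the log2 fold change was 0.49 (SE 0.16), short of the fold threshold, with a range of 0.32 to 0.71 over the alternatives and a call without control 1 (0.71). In OE against control it was -0.14 (SE 0.15), and its direction turned without control 1 (0.09).
Astrocyte and radial glia markers had 5 of 13 tested genes higher and 1 lower (Slc1a2) both in OE and in KD against control, and 1 of 13 lower (Gja1) in OE against KD. Proliferation genes had 10 of 12 higher in OE and 12 of 12 higher in KD against control, and 4 of 12 lower in OE against KD. Smooth muscle, pericyte and endothelial markers had 3 of 5 higher in OE and in KD against control and the same 3, Acta2, Cnn1 and Tagln, lower in OE against KD. Acta2 averaged 231 CPM in OE, 454 CPM in KD and 96.9 CPM in control. The part of any of these cells in the level of Slc6a11 was not tested.

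Slc6a13, the other GABA carrier of the set, which also takes up taurine and is known from the meninges, liver and kidney, was hardly detected. It had 0, 0 and 2 counts in OE 1, 2 and 3, 0 and 3 counts in KD 1 and 2, and no count in either control. Over the control total of 3691526 counts, a count of 0 allows up to 0.813 CPM (3 counts over that total, without TMM scaling; counting error only). The exact 95% Poisson interval of that control count, which is two-sided, reaches 0.999 CPM. On the same scale the OE group held 0.21 CPM and the KD group 0.468 CPM, the last with an exact 95% Poisson interval of 0.0965 to 1.37, so no difference was detectable at this depth and no fold change is given. Meningeal and fibroblast markers summed to 230 to 306 CPM in OE, 268 to 297 CPM in KD and 160 to 187 CPM in control, with Slc22a6 at 0 in all 7 libraries. Fn1 and Col1a1 carried most of that sum, at 154 and 65.3 CPM on average in OE, 184 and 44.7 CPM in KD and 94 and 35.7 CPM in control. Col3a1 averaged 12 CPM in OE, 9.03 CPM in KD and 11.4 CPM in control. Lum, Aldh1a2 and Crabp2 had 9 counts or fewer in every library.

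Slc6a9 encodes the glycine carrier found on astrocytes and near some excitatory synapses. It lies on chromosome 4 at 117507111 to 117547803 (mm9, plus strand), where Ccdc24 and B4galt2 overlap it on the other strand, so its counts are uncertain where the strand was not used. It had 4, 5 and 14 counts in OE 1, 2 and 3, 5 and 3 counts in KD, and 6 and 9 counts in control. In CPM this was 1.22, 1.75 and 4.32 in OE, 1.56 and 0.88 in KD, and 2.93 and 5.77 in control. Both KD libraries lay below both controls, and OE 3 stood apart from the other OE libraries, within the range of the controls.
The log2 fold change of Slc6a9 was -1.77 (SE 0.93) in KD against control, -0.79 (SE 0.79) in OE against control and 0.98 (SE 0.86) in OE against KD, none of them called.

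Slc6a6 encodes the taurine carrier, through which cells take up the osmolyte taurine. It lies on chromosome 6 at 91634061 to 91709057 (mm9, plus strand) and no annotated gene overlaps it. Its level was 305, 266 and 332 CPM in OE 1, 2 and 3, 234 and 261 CPM in KD 1 and 2, and 364 and 384 CPM in control 1 and 2, from 600 to 1076 counts per library. The 3 groups did not overlap, with the controls highest and KD lowest.
In KD against control, Slc6a6 averaged 248 ± 19.5 CPM in KD and 374 ± 14.7 CPM in control (SD, n = 2 each), a log2 fold change of -0.59 (SE 0.11). That is a 1.51-fold fall, just past the threshold of 1.5, and the log2 value was -0.55 without control 2 and -0.52 without KD 1, neither called. In OE, at 301 ± 33.2 CPM (SD, n = 3), the log2 fold change against control was -0.31 (SE 0.10), and against KD it was 0.28 (SE 0.10), neither called. The 3 values came from shared libraries and are set side by side only.
Pan-neuronal markers summed to 7223 to 7697 CPM in OE, 5664 to 5698 CPM in KD and 7943.4 to 7944.5 CPM in control, with 0 of 10 called in OE against control and 4 lower in KD against control. In OE against control DESeq2 and limma-voom also called 0 of these markers, and 3 had an unadjusted p under 0.05. Among them Stmn2 also passed the adjusted threshold but not that of fold (log2 -0.25, SE 0.07, edgeR adjusted p = 0.0202). The markers did not share 1 order of groups. Mapt averaged 1934 CPM in OE, 908 CPM in KD and 2087 CPM in control, Nefm 475 CPM in OE, 149 CPM in KD and 396 CPM in control, and Stmn2 1192 CPM in OE, 1305 CPM in KD and 1416 CPM in control. The part of neurons in the level of Slc6a6 was not tested.

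Slc6a8 encodes the creatine carrier and lies on chromosome X at 70918489 to 70927841 (mm9, plus strand). Its level was 29.5, 37.4 and 37 CPM in OE 1, 2 and 3, 39 CPM in both KD libraries, and 37.1 and 51.9 CPM in control 1 and 2, from 76 to 133 counts per library. The OE libraries lay below both KD libraries by a small margin, and the controls overlapped both groups. Its log2 fold change was -0.35 (SE 0.22) in OE against control, -0.18 (SE 0.24) in KD against control and -0.17 (SE 0.21) in OE against KD, none called. Without control 2, the highest library, the value in KD against control turned to 0.07.

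The authors' deposited table gave log2 fold changes close to these for the members with many reads. For Slc6a6 the authors' deposited table had -0.308 in OE against control and -0.595 in KD against control. For Slc6a11 the authors' deposited table had 0.484 in KD against control and -0.624 in OE against KD. For Slc6a9, with few reads, the values in the authors' deposited table were smaller in size, at -0.629 in OE against control and -1.37 in KD against control.

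Scaled by transcript length, the order of the members was Slc6a6, Slc6a11, Slc6a8, then Slc6a9 and Slc6a13, in 6 of the 7 libraries. In KD 2 the last pair, with 3 counts each, stood the other way round. Slc6a6 had 48.8 ± 5.39 CPM per kb in OE (SD, n = 3), 40.1 ± 3.16 in KD and 60.6 ± 2.38 in control (SD, n = 2 each). Slc6a11 had 22.2 ± 2.8 CPM per kb in OE, 34.5 ± 2.8 in KD and 24.3 ± 4.73 in control. Slc6a8 had 8.74 ± 1.12 CPM per kb in OE, 9.84 in both KD libraries and 11.2 ± 2.63 in control. Slc6a9 had 0.815 ± 0.557 CPM per kb in OE, 0.41 ± 0.161 in KD and 1.46 ± 0.672 in control. The distance between Slc6a6 and Slc6a11 was thus smallest in KD, where their ranges still did not overlap. The labels do not say whether reads cover whole transcripts or their 3′ ends, and with reads from 3′ ends the division by length would not apply.

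Ratios of raw counts within a library do not depend on how libraries are scaled. Slc6a6 had 2.96, 3.11 and 4.06 reads per read of Slc6a11 in OE 1, 2 and 3, 1.77 and 1.76 in KD 1 and 2, and 3.23 and 4.51 in control 1 and 2. Both KD ratios lay below those of all other libraries, and OE overlapped control. Slc6a11 had 3.49, 2.29 and 2.21 reads per read of Slc6a8 in OE, 3.38 and 3.8 in KD, and 3.03 and 1.64 in control, with both KD ratios above both controls and OE overlapping both. Slc6a6 had 10.3, 7.11 and 8.97 reads per read of Slc6a8 in OE, 5.99 and 6.7 in KD, and 9.79 and 7.41 in control. Here too both KD ratios lay below those of all other libraries. A ratio shows unequal change and not which of the 2 transcripts moved.

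**Figure D2:**
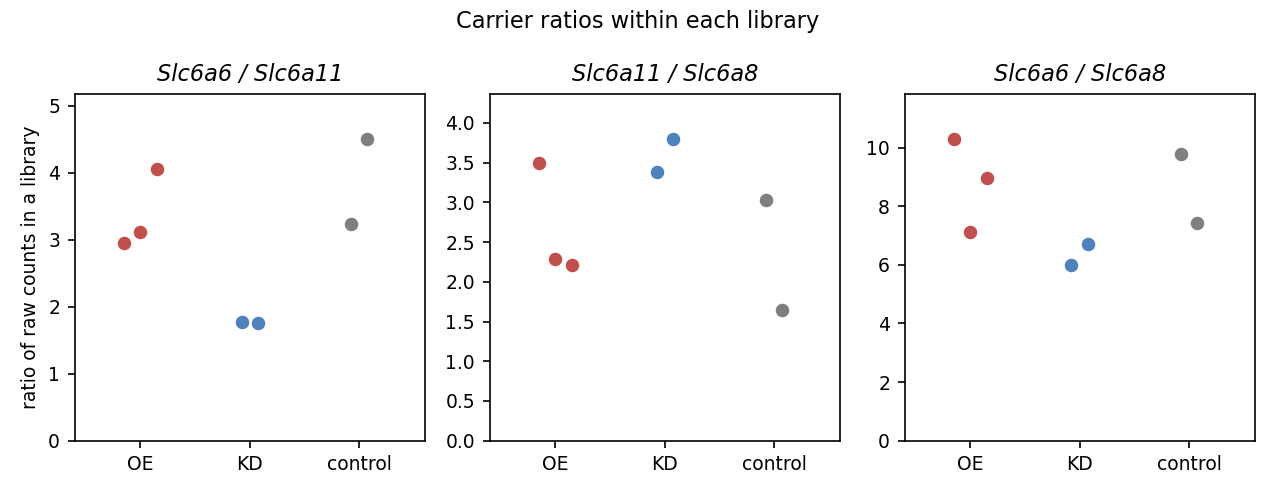
Ratio of raw counts of 2 carriers in each library (points), for OE, KD and control. Slc6a6 per Slc6a11 was 1.77 and 1.76 in KD and at least 2.96 in the other 5 libraries, and Slc6a6 per Slc6a8 was 5.99 and 6.7 in KD and at least 7.11 in the others.

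The other carriers of the family gave a frame for these members. Of 13 listed, 12 were in the table analysed and 5 passed the filter. None of the 5 was called in any comparison by edgeR, DESeq2 or limma-voom, and 2, 0 and 1 had an unadjusted p under 0.05 in OE against control, KD against control and OE against KD. Slc6a15, a carrier of branched-chain amino acids and proline, had 59.2 to 70.2 CPM in OE, 72.7 to 87.7 CPM in KD and 55.2 to 75 CPM in control (log2 -0.01 in OE and 0.31 in KD against control). Slc6a17, a vesicular amino acid carrier of neurons, had 3.95 to 7.71 CPM in OE, 7.33 and 10.6 CPM in KD and 11.5 and 14.7 CPM in control (log2 -1.11, SE 0.42, edgeR adjusted p = 0.118 in OE against control). Slc6a18, Slc6a7 and Slc6a2 had 24 counts or fewer in every library. Seed matches were also present outside the members. Slc6a17 held 5 matches AGCACA in a 3′ UTR of 3638 bases, 1 of them within AAGCACA. Slc6a2 held 3 matches AGCACA, Slc6a15 and Slc6a18 held 1 each, and Slc6a7 held 0. None was tested as a binding site.

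**Figure D3:**
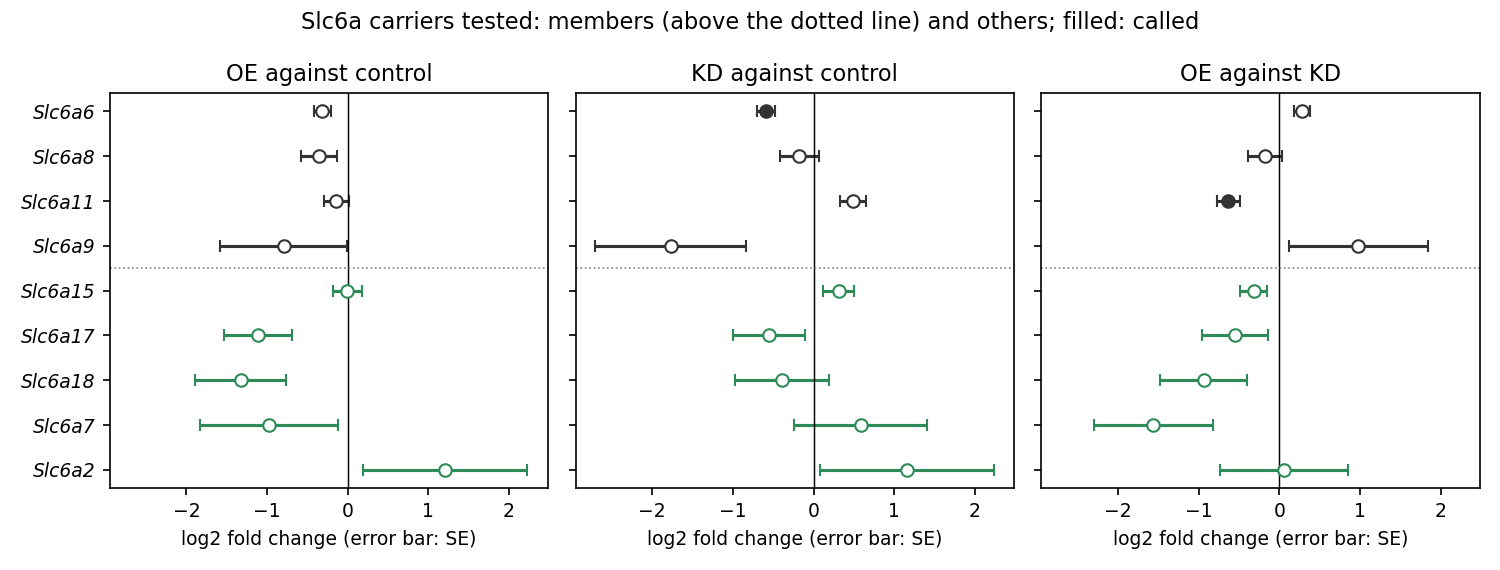
Log2 fold change (points) with its SE (bars) of 9 Slc6a carriers in each comparison, members above the dotted line and filled where called. Slc6a6 is filled in KD against control at -0.59 and Slc6a11 in OE against KD at -0.64.

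The genes around these carriers were described in 6 further lists: GABA and glycine metabolism and vesicle loading, taurine and creatine synthesis with creatine kinases, other carriers of these substrates, sodium and chloride gradients, GABA and glycine receptor subunits, and osmotic response. With the other Slc6a carriers, 64 of 90 listed genes were tested. Of these 0 was called in OE against control, 6 in KD against control (4 higher, 2 lower) and 3 in OE against KD (1 higher, 2 lower), beside 4.91%, 11.7% and 5.3% of all genes. In OE against control DESeq2 and limma-voom also called 0, 9 had an unadjusted p under 0.05, and edgeR called 2 without control 1 and 1 without OE 3.

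In GABA breakdown, Abat, the transaminase that degrades GABA, fell in KD to 158 ± 9.5 CPM, against 238 ± 26.5 CPM in control (SD, n = 2 each), with a log2 fold change of -0.59 (SE 0.12) and an adjusted p in edgeR of 0.000596. That call was lost without control 2 (-0.47), without KD 2 (-0.53) and with limma-voom (-0.58). In OE, Abat averaged 232 ± 4.88 CPM (SD, n = 3) and was not called against control (log2 -0.03, SE 0.11). Against KD it was short of the fold threshold only (log2 0.56, SE 0.11, edgeR adjusted p = 0.000512). The next enzyme of that path, Aldh5a1, was higher in OE (89.9 ± 10.3 CPM, SD, n = 3) than in KD (56.5 ± 7.57 CPM, SD, n = 2; log2 0.67, SE 0.16, edgeR adjusted p = 0.00607), a call lost without KD 1 (0.55) and without OE 1 (0.58). The glycine cleavage gene Gldc was lower in OE than in KD (8.77 ± 2.16 CPM and 19.8 ± 12.6 CPM; log2 -1.17, SE 0.37, edgeR adjusted p = 0.0404), though its libraries overlapped. That call was lost without KD 2 (-0.30), OE 2 (-1.06) or OE 3 (-1.09), and with DESeq2 or limma-voom. Phgdh, the first enzyme of the path that makes serine, from which glycine is formed, rose in KD against control (log2 0.72, SE 0.23, edgeR adjusted p = 0.0295). The call of Phgdh was lost without either KD library or without control 1. Of the 15 genes tested in this list, 1 was higher and 1 lower in KD, and 0 of 15 was called in OE against control, where 0 had an unadjusted p under 0.05 and DESeq2 and limma-voom called 0. The list's median was 0.06 in OE and 0.21 in KD against control.

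Among 6 genes of taurine and creatine synthesis and creatine kinases, Ado, which makes hypotaurine, the precursor of taurine, from cysteamine, fell in KD to 38.2 ± 4.1 CPM, against 73.6 ± 1.85 CPM in control (SD, n = 2 each), with a log2 fold change of -0.95 (SE 0.23) and an adjusted p in edgeR of 0.00352. That call was lost without KD 1. The other taurine synthesis genes tested, Cdo1 and Csad, were not called in KD against control (log2 -0.43 and 0.24). None of the 6 was called in OE against control or in OE against KD by edgeR, DESeq2 or limma-voom, with 1 unadjusted p under 0.05 in each. Of 6 osmotic response genes, among them Nfat5, a factor that is known to switch on osmolyte carriers, 0 was called in the 3 comparisons by these tools and 0 had an unadjusted p under 0.05, with medians of -0.07 in OE and -0.01 in KD against control.

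Among 5 other carriers of these substrates, Slc16a6, a carrier of the monocarboxylate family reported to move taurine, rose in KD against control (log2 0.67, SE 0.23, edgeR adjusted p = 0.0499), a call kept by neither DESeq2, limma-voom nor RLE scaling, nor without any 1 library other than OE 3. Slc12a7, a potassium-chloride cotransporter, rose in KD against control among 13 genes of the sodium and chloride gradients (log2 1.41, SE 0.48, edgeR adjusted p = 0.0416), also with no call by DESeq2 or limma-voom, or without either KD library, either control or OE 3. In OE against control and OE against KD the edgeR, DESeq2 and limma-voom fits called 0 in these lists, with 1 and 1 unadjusted p under 0.05 among the carriers and 2 and 3 among the gradient genes.

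Of 14 GABA and glycine receptor subunits 1 was called, the GABA type A subunit Gabrb2. It had 51.5 ± 7.1 CPM in OE (SD, n = 3), 78.6 ± 3.67 CPM in KD and 43.2 ± 21.2 CPM in control (SD, n = 2 each). It rose in KD against control (log2 0.83, SE 0.23, edgeR adjusted p = 0.0124), a call lost without control 2 (0.43) or either KD library. It was lower in OE than in KD (-0.61, SE 0.20, edgeR adjusted p = 0.0495), a call lost without any 1 KD or OE library, with DESeq2 and with RLE scaling (adjusted p = 0.0549). In OE against control 0 of the 14 was called by edgeR, DESeq2 or limma-voom, with 3 at an unadjusted p under 0.05.

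**Figure D4:**
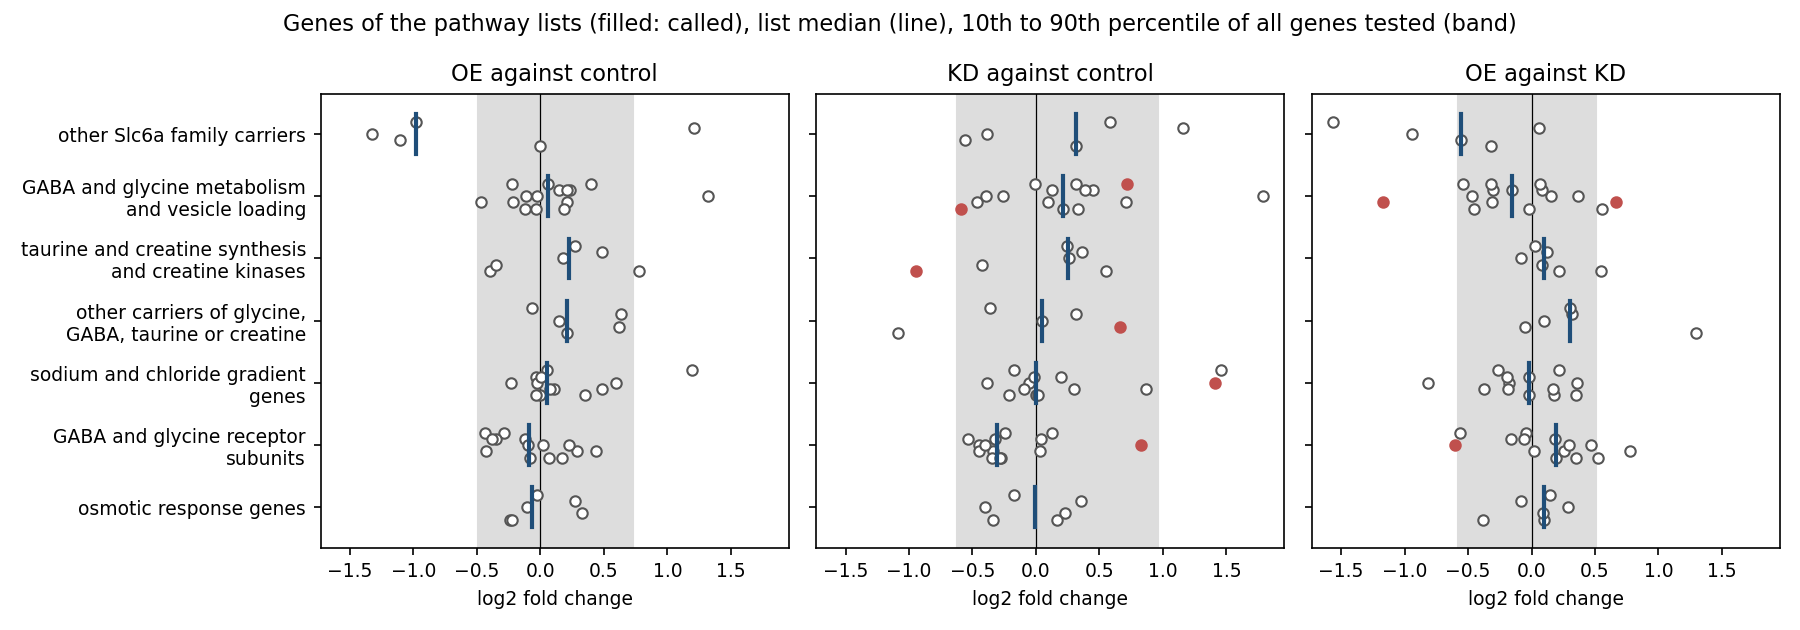
Log2 fold change of each tested gene of the 7 lists (circles, filled where called), with the list's median (line) and the 10th to 90th percentile of all 12134 genes (band). No gene is filled in OE against control, 6 are in KD against control and 3 in OE against KD.

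By likeness of profile, the genes closest to Slc6a6 over the 7 libraries were the ubiquitin ligase gene Rnf19b (Pearson r = 0.991), Aktip (0.984) and Bcl2l1, which protects cells from death (0.983), of 5690 genes searched (5691 for Slc6a9). Those closest to Slc6a11 were the exon junction gene Magoh (0.996), Pan3, of mRNA deadenylation (0.986), and the nucleoporin gene Nup88 (0.979). Those closest to Slc6a8 were Por (0.964), Ppp6r1 (0.953) and Zranb2 (0.948), and to Slc6a9 Gdap1l1 (0.969), Sort1 (0.964) and Sez6l2 (0.958). Among the members, Slc6a6 and Slc6a11 had r = -0.56, Slc6a9 and Slc6a11 had r = -0.707, and Slc6a6 and Slc6a9 had r = 0.793. The 7 points share 3 groups and 1 scaling, and the closest of many genes have high r in any case, so these are descriptions with no test.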

How the data were processed

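RNA-seq of 7 libraries was analysed from the raw gene counts that the authors deposited. Mapping of 50-base single reads to mm9 used TopHat2 2.0.10, and HTSeq-count 0.6.1p1 counted the unique reads, per the labels' protocols. The deposited counts carry RefSeq identifiers for the Slc6a genes, but neither the annotation version nor the strand setting is given in the sources used here. Overlapping genes could therefore not be told apart. The authors' deposited log2 fold changes came from DESeq2 1.4.5, per the labels' protocols. The authors also deposited adjusted p-values and scaled counts, of which none is printed. Groups and replicate numbers came from the titles, which list 3 OE libraries where the design text speaks of duplicates. No 2 libraries of a group agreed within sampling noise (chi-square per degree of freedom 2.91 to 3.44).

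Fits used edgeR 4.0.16 under R 4.3.3 (filterByExpr, TMM, robust quasi-likelihood F test, 1 fit of 7 libraries, 4 residual degrees of freedom), tested on simulated counts. Tests were two-sided. Each SE is the size of the log2 fold change divided by the square root of F, and CPM are TMM-scaled. Members and lists were chosen with earlier results of these data known. Genes named are the members, other Slc6a carriers that passed the filter (1 listed carrier is not reported here), at most 4 called genes per list and comparison, and for each member the 3 genes of highest Pearson correlation of log2 CPM (prior count 2) among genes with a mean log2 CPM of at least 5. Alternatives were another scaling (RLE), no filter, DESeq2 1.42.0, limma-voom (limma 3.58.1), 2-group fits, a replicate block, no fold threshold and each library left out. Sites were read from 3′ UTRs of GENCODE vM1 (NCBIM37, the same build as mm9), taking for each gene the transcript of longest coding length. The same transcripts gave the lengths for CPM per kb, and they may differ from the transcripts behind the counts.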

Additional observations from a re-analysis of the deposited data

How the results depend on the processing

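Of 483 values of 36 single-gene results under the alternatives, 419 kept their direction and side of the threshold, 50 lost the call, 2 gained it and 12 turned direction. Most of these results were not called in the main fit and had no call to lose, so 50 of 483 is not the share of calls lost. Among called results, losses ranged from 1 of 14 alternatives for Ado to 11 of 14 for Slc16a6, both in KD against control. Slc12a7 in KD against control and Gabrb2 in OE against KD each lost 8 of 14. With limma-voom 370 genes were called in OE against control, of which 63% were higher, against 596 with 74.3% higher in edgeR. Limma-voom called 3 pathway genes in KD against control, and DESeq2 called 1 in OE against KD. With no fold threshold 973 genes were called in OE against KD, 825 with 61.7% higher in OE against control, 2 members in KD against control, and 2, 11 and 9 pathway genes in OE against control, KD against control and OE against KD. Leaving out 1 library at a time gave 340 to 592 genes in OE against control, 882 to 1399 in KD against control and 371 to 765 in OE against KD, with 55.4% higher in the full OE against KD fit and 70.8% without KD 2. It gave 0 to 2 members in KD against control and 0 to 1 in OE against KD, and 0 to 2, 1 to 6 and 1 to 3 pathway genes in OE against control, KD against control and OE against KD. It also turned the log2 fold change of Slc6a11 (-0.307 to 0.088) and Slc6a15 (-0.22 to 0.23) in OE against control, of Slc6a8 (-0.415 to 0.072), Slc6a2 (-0.58 to 6.18) and Slc6a18 (-0.88 to 0.49) in KD against control, and of Slc6a2 (-0.72 to 1.81) in OE against KD. Slc6a15 in OE against control, at -0.01, was 0.004 with no filter and 0.014 with limma-voom. The cause of these changes was not tested. The 6.18 of Slc6a2 came without control 1, and control 2 had 0 counts of this gene, so that value gives no size of a change.

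Libraries with the same replicate number did not deviate together (correlations of -0.054 to 0.026). In a group of 2 libraries the deviations mirror each other, so these few values cannot tell whether libraries with the same number shared a batch. With the replicate number as a block, 464 genes were called in OE against control, 1395 in KD against control and 556 in OE against KD. The block left 0 members called in OE against KD (Slc6a11, log2 -0.58). With it Gldc (-0.95, edgeR adjusted p = 0.163) and Gabrb2 (-0.54, edgeR adjusted p = 0.125) in OE against KD, and Slc12a7 (edgeR adjusted p = 0.0549) and Slc16a6 (0.67, edgeR adjusted p = 0.0531) in KD against control, were no longer called. It gave 1 called pathway gene in OE against control and 1 in OE against KD, and turned Slc6a15 in OE against control to 0.054 and Slc6a2 in OE against KD to -0.46. Slc6a13 and Slc6a9, with few reads, are limited by depth, and intervals and floors cover counting error only.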
